A study of Homo sapiens with 191 samples.

Results

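Accessible regions that flank promoters without lying on them are described here for GM12878, a lymphoblastoid line made from human B cells by Epstein-Barr virus. They are the regions whose centre lay more than 1 kb and at most 5 kb from a protein-coding gene's transcription start site (TSS), taking the nearest one, outside every annotated exon and more than 1 kb from the TSS of any long noncoding RNA (lncRNA). Of the 50000 regions in the list, 6695 had their centre in this window. The exon condition removed 906 of these and the lncRNA condition another 258, which left 5531 flanking regions, or 11.1% of the list (exact binomial 95% interval 10.8 to 11.3). For comparison, 16365 regions lay within 1 kb of a protein-coding TSS and 26940 beyond 5 kb of all of them. The exon and lncRNA conditions were not applied to either of these classes.

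The list came from Pi-ATAC of fixed cells that carried no antibody stain, in which the transposase Tn5 tags open DNA in bulk before single cells are sorted. The libraries covered here, 96 from plate 1 and 95 from plate 2, share 1 cell line and 1 treatment and form 1 group. The authors called regions of a fixed width on the aggregated cells, so each region has a single value, its score, which is the -log10 of the q-value of the peak call. There is no replicate, no second group and no read count, and the depth behind a score is unknown. The study also filtered single libraries by quality, and its methods leave unclear if those that failed were in the pool behind the scores. Intervals therefore cover counting error only, no p-value is given, and regions of 1 gene or 1 called peak are not independent.

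The core promoter of an active gene is kept free of nucleosomes, and many mammalian promoters lie in CpG islands bound by SP, ETS, NRF1 and NFY factors. Enhancers are bound by cell type-specific factors, in B cells among them RUNX, PU.1, EBF1, E2A, POU2F and NF-kB, and are often found in introns and just outside genes. The stretch between the promoter and the distal sequence of a gene can hold elements of both kinds, as well as alternative promoters that an annotation does not list. Because a gene with several annotated TSSs has several flanks, a region upstream of an internal TSS can still lie inside the gene.

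The central 300 bases of 6 flanking regions are shown to let each kind compared here be seen. They are the strongest upstream and downstream of the TSS at genes with and without a region within 1 kb, and the strongest at the B cell identity genes PAX5 and POU2AF1. BLK, a gene of the same list, had stronger regions, whose sequence is not shown. They are the hg19 plus strand from the GRCh37 reference, at chr7:94287190-94287489 for SGCE (upstream, gene with a region within 1 kb), chr5:100236450-100236749 for ST8SIA4 (downstream, gene with a region within 1 kb), chr7:48031356-48031655 for SUN3 (upstream, gene without a region within 1 kb), chr15:22461058-22461357 for AC010760.1 (downstream, gene without a region within 1 kb), chr9:37027660-37027959 for PAX5 and chr11:111238442-111238741 for POU2AF1. Capitals mark matches to any of the 21 motifs described with the motif shares.
SGCE, upstream: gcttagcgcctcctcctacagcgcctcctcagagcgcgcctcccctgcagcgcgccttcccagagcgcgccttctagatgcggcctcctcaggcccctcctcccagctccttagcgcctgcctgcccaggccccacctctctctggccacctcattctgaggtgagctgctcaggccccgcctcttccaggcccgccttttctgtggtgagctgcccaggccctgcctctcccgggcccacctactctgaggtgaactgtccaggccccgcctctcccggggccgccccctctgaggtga
ST8SIA4, downstream: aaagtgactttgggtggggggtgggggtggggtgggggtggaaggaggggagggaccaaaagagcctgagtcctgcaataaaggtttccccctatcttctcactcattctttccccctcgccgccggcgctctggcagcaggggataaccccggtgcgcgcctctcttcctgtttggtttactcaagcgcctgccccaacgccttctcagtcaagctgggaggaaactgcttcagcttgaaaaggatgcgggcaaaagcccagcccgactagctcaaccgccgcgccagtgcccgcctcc
SUN3, upstream: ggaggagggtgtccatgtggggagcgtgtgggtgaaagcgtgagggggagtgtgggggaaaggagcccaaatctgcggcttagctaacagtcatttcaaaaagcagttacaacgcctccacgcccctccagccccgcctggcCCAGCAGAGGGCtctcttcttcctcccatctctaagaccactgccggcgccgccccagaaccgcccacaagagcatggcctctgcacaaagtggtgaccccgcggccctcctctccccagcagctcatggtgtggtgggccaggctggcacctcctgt
AC010760.1, downstream: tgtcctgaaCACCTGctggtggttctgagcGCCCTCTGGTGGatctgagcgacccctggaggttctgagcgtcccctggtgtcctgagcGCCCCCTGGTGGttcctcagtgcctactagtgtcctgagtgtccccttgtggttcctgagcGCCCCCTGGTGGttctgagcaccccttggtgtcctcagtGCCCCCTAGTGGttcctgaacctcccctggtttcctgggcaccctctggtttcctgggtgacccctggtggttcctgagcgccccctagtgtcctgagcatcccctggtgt
PAX5, upstream: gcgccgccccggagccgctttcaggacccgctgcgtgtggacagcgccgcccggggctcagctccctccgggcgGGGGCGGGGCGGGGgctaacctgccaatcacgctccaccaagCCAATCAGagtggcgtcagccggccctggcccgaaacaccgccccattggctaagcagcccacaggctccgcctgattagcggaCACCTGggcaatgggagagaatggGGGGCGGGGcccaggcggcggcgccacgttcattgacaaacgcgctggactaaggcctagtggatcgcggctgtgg
POU2AF1, upstream: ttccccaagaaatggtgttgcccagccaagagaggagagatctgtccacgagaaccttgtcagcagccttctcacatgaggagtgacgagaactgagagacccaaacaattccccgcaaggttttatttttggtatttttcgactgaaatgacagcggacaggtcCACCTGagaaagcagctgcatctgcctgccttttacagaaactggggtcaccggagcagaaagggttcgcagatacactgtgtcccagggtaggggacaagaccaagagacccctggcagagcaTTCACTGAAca

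The SGCE and ST8SIA4 stretches held 16 and 15 CpG dinucleotides, a GC content of 69.7% and 61.3%, and no match to the motifs searched. The PAX5 stretch held 29 CpG and was 70.3% GC, with 3 SP/KLF matches of which 2 overlap, a NFY match and an E-box. The POU2AF1 stretch was 51.3% GC with 7 CpG, an E-box and a STAT match. The AC010760.1 stretch repeats a short unit and held 4 CTCF matches, all on the minus strand, with an E-box, and the SUN3 stretch held 1 CTCF match on the plus strand.

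Flanking regions were denser downstream of the TSS than upstream. Upstream there were 2475 regions, a density of 17.5 per Mb of eligible sequence, that is, of bases that meet every positional condition of the class (exact Poisson 95% interval 16.8 to 18.2). Downstream there were 3055, or 22.3 per Mb (21.5 to 23.1). The ratio of upstream to downstream density was 0.785 (exact conditional 95% interval 0.744 to 0.828). One further region was equally far from TSSs on both sides and was given no side. Downstream density was the higher under each of the 10 alternatives tried, but the size of the ratio depended on which TSSs counted. With the outermost TSS of each gene alone, where regions at the other TSSs of the gene can fall into the class, it was 0.509 (0.475 to 0.545).

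Gene bodies accounted for most of the class, and also for most of the eligible sequence. Of the downstream regions, 2804 (91.8%) lay inside the body of the nearest gene, and 2235 (73.2%, 95% interval 71.5 to 74.7) lay in the first intron of a transcript that starts at the nearest TSS. Eligible downstream sequence was 127.1 Mb inside the nearest gene and 9.94 Mb outside it, so the 91.8% shows no excess inside genes. The eligible sequence in first introns is not given, so the 73.2% has no background to be read against. Of the upstream regions, 1368 (55.3%) also lay inside the nearest gene, upstream of an internal TSS, at 15.6 regions per Mb (14.8 to 16.5). Such sequence made up 87.7 of the 141.4 Mb eligible upstream. The 1107 upstream regions outside the gene had a density of 20.6 per Mb (19.4 to 21.9). That was 0.934 times (0.871 to 1.00) the 22.1 per Mb of downstream regions inside the gene. The 251 downstream regions outside the gene had 25.3 per Mb (22.2 to 28.6). At genes with a region within 1 kb the upstream densities were 18.2 per Mb (17.2 to 19.3) inside the gene and 29.8 (27.8 to 31.9) outside it. The downstream densities were 28.1 (27.0 to 29.2) inside and 44.3 (38.0 to 51.2) outside, the last from 180 regions. The lowest value was that of upstream sequence inside genes, and the upstream density was the lower both inside and outside the gene. Of the upstream regions outside the nearest gene, 11.5% lay in the body of another protein-coding gene.

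Genes with an accessible promoter had the denser flanks. A gene was counted as having an accessible promoter where any region of the list lay within 1 kb of any of its TSSs. At such genes there were 4601 flanking regions, 25.2 per Mb (24.5 to 26.0), and at genes without such a region 929, or 9.66 per Mb (9.05 to 10.3). The ratio was 2.61 (2.44 to 2.81). It was 2.26 (2.04 to 2.50) upstream and 2.97 (2.69 to 3.29) downstream. A gene without a region within 1 kb is one whose promoter did not reach the limit of the list, which is not the same as a closed promoter.

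The excess was highest at the accessible TSS itself. Where the nearest TSS had a region within 1 kb, the density was 48.1 per Mb (46.4 to 49.9). Where another TSS of the gene had the region, it was 14.1 per Mb (13.4 to 14.8), which was 1.46 times (1.34 to 1.58) the density at genes without any. The difference between the sides was seen at the accessible TSSs, with 37.2 per Mb upstream and 59.4 per Mb downstream, a ratio of 0.626 (0.581 to 0.675). It was not seen where another TSS of the gene had the region (14.1 against 14.0 per Mb, ratio 1.01, 0.916 to 1.11) or at genes without any (9.64 against 9.68 per Mb, ratio 0.995, 0.873 to 1.13).

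**Figure D1:**
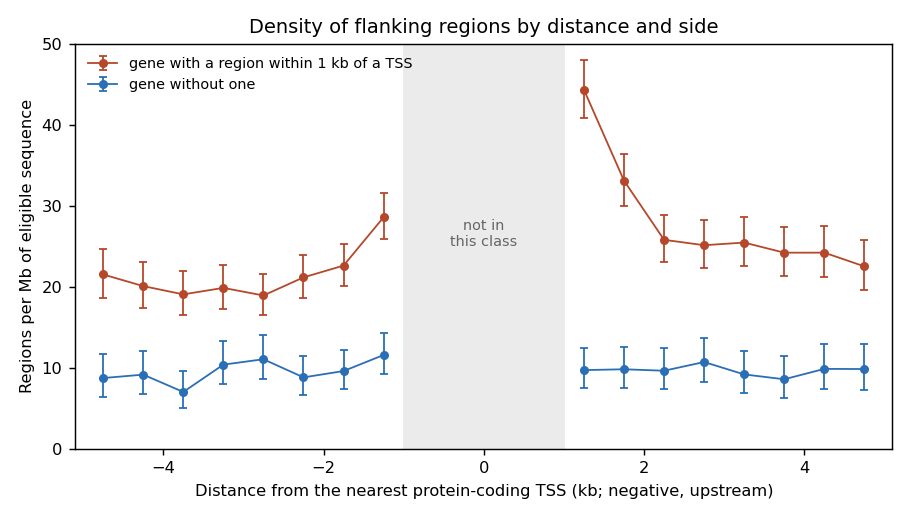
Regions per Mb of eligible sequence (y axis) in 500 bp bins of distance from the nearest protein-coding TSS (x axis, kb, upstream negative), for genes with and without a region within 1 kb, with exact 95% Poisson intervals as bars. At genes with such a region the density falls from 44.3 per Mb in the nearest downstream bin to 22.5 in the farthest, and at genes without any it stays between 7.02 and 11.6 per Mb.

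Density fell with distance near accessible promoters. At genes with a region within 1 kb, the downstream density was 44.3 per Mb (40.9 to 48.0) at 1000 to 1500 bp, 33.1 (30.0 to 36.4) at 1500 to 2000 bp and 25.8 (23.0 to 28.8) at 2000 to 2500 bp, and it lay between 22.5 and 25.5 per Mb from there to 5000 bp. Upstream it was 28.6 per Mb (25.9 to 31.5) at 1000 to 1500 bp and 22.6 (20.1 to 25.4) at 1500 to 2000 bp, and then lay between 18.9 and 21.5 per Mb. At 4500 to 5000 bp the intervals of the sides overlapped, with 21.5 per Mb (18.7 to 24.7) upstream and 22.5 (19.6 to 25.8) downstream. At genes without a region within 1 kb the nearest bins held 11.6 (9.27 to 14.3) upstream and 9.72 (7.50 to 12.4) downstream. Sequence 5 to 10 kb away that met the same conditions on exons and lncRNAs held 15.2 regions per Mb (14.7 to 15.7), so that the flanks had 1.31 times (1.25 to 1.36) its density. The ratio of upstream to downstream density there was 0.905 (0.848 to 0.966).

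The flanks of stronger promoters held more regions. The 11106 genes with a region within 1 kb and eligible sequence were divided by quartiles of the strongest score within 1 kb. In the lowest group, with scores of 16.0 to 49.1, there were 19.7 flanking regions per Mb (18.5 to 21.1). The density was 24.4 (23.0 to 25.9) in the next, 27.4 (25.9 to 29.0) in the one after and 29.1 (27.6 to 30.7) in the highest, with scores of 338.8 to 4437.64. The share of genes with at least 1 flanking region was 21.0% in the lowest and 27.9% in the highest. The score of a flanking region did not rise with that of the promoter. Over the 4601 regions at these genes Spearman's rank correlation was 0.00797, a description across regions that share genes and libraries.

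Of the 19511 protein-coding genes with eligible sequence, 3429 (17.6%) had at least 1 flanking region. The share was 24.0% (2661 genes, 95% interval 23.2 to 24.8) at genes with a region within 1 kb and 9.14% (768 of 8405, 8.53 to 9.77) at genes without. These shares were 11.7% and 4.63% with regions above the median score alone, and 31.3% and 14.2% with an outer limit of 10 kb. Most genes in the class had a single region, 2309 of 3429 (67.3%), while 465 (13.6%) had 3 or more and 609 (17.8%) had regions on both sides. Having 3 or more was seen at 3.90% of genes with a region within 1 kb and at 0.381% of those without. The promoter was usually the stronger element. Taken region by region, the ratio of the strongest score within 1 kb to that of the flanking region had a median of 5.02 (quartiles 1.72 and 13.3), and 641 of 4601 flanking regions (13.9%) had a higher score than every region within 1 kb of their gene.

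Flanking regions were weak by the measure of the list. Their median score was 27.2 (95% interval 25.7 to 27.2, quartiles 20.0 and 47.4), against 64.3 within 1 kb, 33.1 between 500 bp and 1 kb, 27.2 at 5 to 10 kb under the same conditions, and 22.8 beyond 50 kb. Across the whole list 25.1% of regions reached the upper quartile of score, 74.9, and 770 flanking regions did (13.9%, 13.0 to 14.9). The share was 46.5% within 1 kb and 14.8% beyond 5 kb, without the exon and lncRNA conditions. With them it was 14.5% at 5 to 10 kb, 15.0% at 10 to 50 kb and 11.5% beyond 50 kb. The lowest score in the list, 16.0, was that of 378 flanking regions (6.83%). In score the class thus stood by the distal regions.

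**Figure D2:**
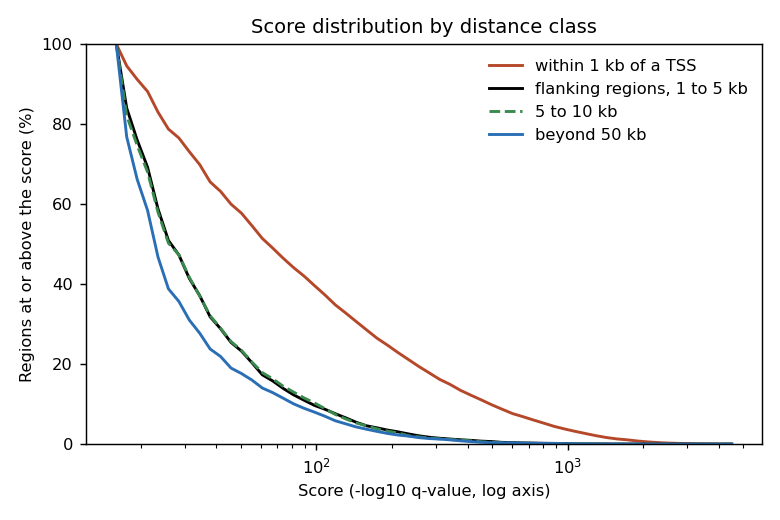
Share of regions (y axis, %) at or above each score (x axis, -log10 q-value on a log axis) for regions within 1 kb of a TSS, flanking regions, regions at 5 to 10 kb and regions beyond 50 kb. The curve of the flanking regions (median 27.2) runs with that of the regions at 5 to 10 kb and lies far below that within 1 kb (median 64.3).

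The median score was 27.2 both upstream and downstream, and 14.8% (13.4 to 16.2) against 13.2% (12.0 to 14.5) reached the upper quartile. Median GC content was 49.1% on each side. At genes with a region within 1 kb the median score was 27.2 and 14.5% (13.5 to 15.6) reached the upper quartile, against 25.7 and 10.9% (8.93 to 13.0) at genes without. The gap between these medians, 1.46 (0.737 to 2.18), is close to the step between neighbouring scores and depended on the setting. It was 0 with 1 region per called peak or without regions in the called peak of a promoter region, and from 2.90 to 2.93 with an outer limit of 10 kb, no exon overlap, the canonical TSS or the lowest score left out. Its interval held 0 also with the outermost TSS, an inner limit of 2 kb and regions above the median score. Flanking regions at genes without a region within 1 kb were richer in GC, with a median of 51.3% (50.5 to 51.9) against 48.9% (48.5 to 49.1).

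Some flanking regions belonged to the called peak of a promoter region. The names in the list mark summits of the same called peak, and 436 flanking regions (7.88%, 7.19 to 8.62) shared a peak with a region within 1 kb. The share was 23.0% (20.6 to 25.6) at 1000 to 1500 bp, 12.6% (10.4 to 15.0) at 1500 to 2000 bp and 0.190% (0.0230 to 0.683) at 4000 to 5000 bp. It was 9.07% (8.07 to 10.1) downstream and 6.42% (5.49 to 7.46) upstream. With the outermost TSS of each gene it was 13.4%, and with 2 kb as the inner limit 1.81%. These regions were stronger, with a median score of 45.8 (40.9 to 50.7) against 25.7 for the other 5095, and 33.5% (29.1 to 38.1) of them reached the upper quartile. They included the regions at SGCE, ST8SIA4, SASH3, VOPP1, RNASET2 and ELF2 described next. Without them the ratio of upstream to downstream density was 0.808 (0.764 to 0.854), and that of genes with to genes without a region within 1 kb was 2.37 (2.20 to 2.54).

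Chromosome 7 held the strongest flanking region of all, at 94287089 to 94287589 (score 1969.79), 1455 bp upstream of a TSS of SGCE, which encodes epsilon-sarcoglycan. It lay in an intron of PEG10, the imprinted neighbour that is transcribed away from SGCE, and SGCE had 444.7 as its strongest score within 1 kb. The next lay 2319 bp downstream of a TSS of ST8SIA4, a polysialyltransferase, on chromosome 5 at 100236349 to 100236849 (score 1467.47, strongest within 1 kb 1363.24). SASH3, a signalling adaptor of lymphocytes, had a region 1410 bp downstream on chromosome X at 128915115 to 128915615 with a score of 1411.01, against 227.0 within 1 kb. At VOPP1 the region lay 3170 bp downstream on chromosome 7 at 55601967 to 55602467 (score 1141.51, within 1 kb 207.7). All of these were stronger than any region within 1 kb of their gene.

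The other 4 of the 8 strongest also exceeded their promoter. The region of RNASET2, an extracellular ribonuclease, had a score of 1030.0 and lay 1153 bp downstream on chromosome 6 at 167364619 to 167365119, where another annotated gene overlaps. That of PDLIM1, a cytoskeletal adaptor with a PDZ and a LIM domain, lay 4375 bp upstream and outside the gene on chromosome 10 at 97054894 to 97055394 (score 1027.3, within 1 kb 91.3). ZBTB2, a zinc finger protein, had a region 1082 bp downstream on chromosome 6 at 151711362 to 151711862 with a GC content of 78.6% and a score of 978.9, against 85.8 within 1 kb. ELF2, an ETS factor, had a region 1178 bp downstream on chromosome 4 at 140003950 to 140004450 with a score of 920.1. Of the 8, 6 lay in a first intron of their gene, and 5 of these 6 shared a called peak with a region within 1 kb, the exception being ZBTB2.

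At genes without a region within 1 kb the strongest flanking region lay 4312 bp downstream of the TSS of AC010760.1, a protein-coding model of unnamed function, beyond the end of the gene, on chromosome 15 at 22460957 to 22461457 (score 564.4). The region with repeated CTCF matches shown above is its centre. TSPAN18, a tetraspanin, followed with 476.0 on chromosome 11 at 44883731 to 44884231, 2827 bp downstream of a TSS. CAMK2B, a subunit of a calcium/calmodulin-dependent kinase, had 439.9 on chromosome 7 at 44297316 to 44297816. PIGR, the receptor that carries polymeric immunoglobulin across epithelia, had 352.7 on chromosome 1 at 207103646 to 207104146. SUN3, a protein of the nuclear envelope, had 300.1 on chromosome 7 at 48031255 to 48031755, and ABHD12B 279.8 on chromosome 14 at 51342051 to 51342551, where PYGL overlaps. Of these 6, SUN3 alone was upstream of its nearest TSS, in sequence inside the gene.

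The regions nearest to the limits of the class show what its borders separate. CDV3 and MKNK1 had regions 999 bp from a TSS, outside the class, with scores of 66.1 and 27.2. FTCD and LAMTOR3 had regions at 1001 bp, inside it, with 25.7 and 18.7. ACO1 (4999 bp, score 21.4) and C7orf50 (4997 bp, 36.2) were just inside the outer limit, and AZIN2 and SCN4A (both 5001 bp, 83.9 and 24.3) just outside.

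In sequence the flanking regions stood nearer to distal regions than to promoters. Their median GC content was 49.1% (48.9 to 49.3), against 62.1% within 1 kb, 53.9% between 500 bp and 1 kb, and 47.9% beyond 5 kb. A ratio of observed to expected CpG over 0.6, a usual mark of CpG islands, was found in 450 of them (8.14%), against 71.2% within 1 kb and 5.92% beyond 5 kb. Under the exon and lncRNA conditions of the class, distal shares were lower. They were 4.82% at 5 to 10 kb, 4.44% at 10 to 50 kb and 2.60% beyond 50 kb. Among flanking regions the share fell with distance, from 13.4% at 1000 to 2000 bp to 3.89% at 4000 to 5000 bp. The 450 CpG-rich regions had a median score of 37.8 (34.7 to 42.5), against 25.7 for the rest, and 26.4% (22.4 to 30.8) of them reached the upper quartile. A CpG-rich sequence was more common outside the gene than inside it on both sides. The shares were 13.2% against 3.58% upstream, and 16.3% against 7.63% downstream.

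Matches to 21 consensus motifs were counted on either strand over the full width of each region. Motif shares within 1 kb and beyond 5 kb include exonic regions and those near a lncRNA TSS, unlike those of the class. The motifs of promoter factors were rare in flanking regions. The SP/KLF motif (GGGGCGGGG) matched 3.69% of them (3.21 to 4.22), against 24.9% within 1 kb and 2.42% beyond 5 kb. The ETS motif (CCGGAAGT) matched 0.723% (0.517 to 0.983), against 6.76% and 0.798%. NRF1 (GCGCATGCG) matched 0.271%, against 3.05% and 0.301%, NFY (CCAATCAG) 1.93%, against 5.05% and 2.08%, and YY1 (AAGATGGC) 2.15%, against 5.11% and 2.47%. The cyclic AMP response element (TGACGTCA) matched 0.542%, against 2.72% and 0.568%. Of these 6 motifs, SP/KLF alone had a flanking share whose interval lay above that of distal regions (2.24 to 2.61). It was 7.79% with the outermost TSS of each gene and 6.69% with the canonical one, and 5.72% among flanking regions above the median score. With an inner limit of 2 kb it was 2.38% (1.90 to 2.94), no longer above the distal share.

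Over all regions, motifs of B cell factors had shares near those of distal regions. RUNX (TGTGGTTT) matched 6.06% of flanking regions (5.44 to 6.72), against 2.25% within 1 kb and 6.46% beyond 5 kb. AP-1 and BATF (TGANTCA) matched 18.7% (17.7 to 19.7), against 9.01% and 21.4%, an interval below that of distal regions (21.0 to 21.9). PU.1/SPIB (GAGGAAGT) matched 5.75% (5.15 to 6.40), against 4.28% and 5.50%, and the octamer of POU2F factors (ATGCAAAT) 3.60%, against 2.09% and 3.97%. The interferon regulatory factor motif (GAAANNGAA) matched 16.3%, against 11.5% and 17.3%, and the E-box of E2A (CAGGTG) 47.6% (46.3 to 48.9), against 35.3% and 45.4% (44.8 to 46.0). EBF1 matched 1.03% (0.781 to 1.33), against 0.776% and 0.917%, and MEF2 1.30% (1.02 to 1.64), against 0.593% and 1.14%. NF-kB, which matched 16.6% (15.6 to 17.6), was more common within 1 kb (21.6%) than beyond 5 kb (15.9%).

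**Figure D3:**
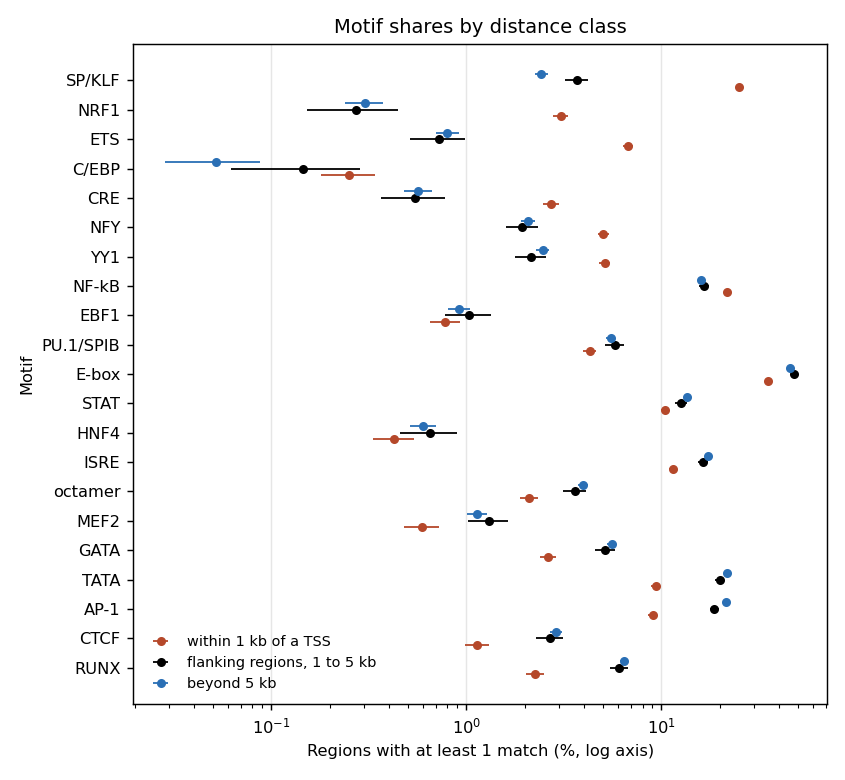
Share of regions (x axis, %, log axis) with at least 1 match to each of 21 motifs (y axis), for regions within 1 kb of a TSS, flanking regions and regions beyond 5 kb, with exact 95% binomial intervals as bars. The flanking points lie by the distal ones for most motifs, as for ETS (0.723% against 0.798%, and 6.76% within 1 kb).

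CTCF, the insulator factor, matched 2.68% of flanking regions (2.27 to 3.14), against 1.14% within 1 kb and 2.88% beyond 5 kb. It also differed within the class. It matched 3.39% upstream (2.72 to 4.18) and 2.09% downstream (1.62 to 2.67). At genes without a region within 1 kb it matched 5.70% (4.30 to 7.39), against 2.06% (1.67 to 2.52) at genes with such a region. SP/KLF also differed by gene, with 5.48% (4.11 to 7.15) against 3.33% (2.83 to 3.88). So did NRF1, with 0.860% (0.372 to 1.69, 8 regions) against 0.152% (0.0612 to 0.313, 7 regions). These shares were not matched for GC content, and flanking regions at genes without a region within 1 kb were richer in GC. NF-kB matched 18.3% upstream (16.8 to 19.8) and 15.3% downstream (14.0 to 16.6). RUNX and AP-1 had overlapping intervals in both comparisons. Of the motifs of other lineages, GATA factors (letters AGATAAG) matched 5.15% of flanking regions, HNF4 (CAAAGTCCA) 0.651% and C/EBP (TTGCGCAA) 0.145% (0.0625 to 0.285, 8 regions). Beyond 5 kb the shares were 5.56%, 0.601% and 0.0520% (0.0284 to 0.0872). Within 1 kb they were 2.62%, 0.428% and 0.251% (0.180 to 0.340), so that C/EBP was most common at promoters. STAT (TTCNNNGAA) matched 12.6% of flanking regions against 13.6% beyond 5 kb, and the TATA box (letters TATAAA) 19.9% against 21.7%.

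GC content differed between the classes, so motifs were also compared within bins of it. The 40 to 50% bin held the most flanking regions, 2839, beside 2033 regions within 1 kb and 15972 beyond 5 kb. There the contrast with promoters was small or absent for most motifs of B cell factors. The E-box kept it, with 44.0% (42.2 to 45.8) of flanking regions against 35.7% (33.6 to 37.8) within 1 kb and 42.8% beyond 5 kb. RUNX matched 6.69% (5.80 to 7.67), against 6.10% (5.098 to 7.23) within 1 kb and 7.26% beyond 5 kb, and AP-1 20.4% (18.9 to 21.9), against 18.0% (16.4 to 19.7) and 23.3%. The octamer turned round in this bin, with 3.91% (3.23 to 4.69) against 5.46% (4.51 to 6.54) and 4.66%, but the intervals of flanks and promoters overlapped. ETS remained lower in the flanks, with 0.423% (0.219 to 0.737) against 1.18% (0.758 to 1.75) within 1 kb, as did SP/KLF, with 0.810% (0.514 to 1.21) against 2.51% (1.87 to 3.29). At 50 to 60% GC, the 1965 flanking regions matched ETS in 0.916% (0.544 to 1.44), against 6.52% of 4510 regions within 1 kb and 1.05% of 8220 beyond 5 kb. SP/KLF matched 3.51% (2.74 to 4.42), against 11.0% and 2.80% (2.45 to 3.18), RUNX 5.90% (4.90 to 7.04), against 2.97% and 5.68%, and AP-1 18.4% (16.7 to 20.2), against 12.0% and 19.5%. NF-kB, the more common motif within 1 kb over all regions, was in this bin the less common there, with 21.6% (19.8 to 23.5) of flanking regions against 18.2% (17.0 to 19.3) and 21.7%. CTCF matched 3.51% (2.74 to 4.42), against 1.40% and 4.08%. The octamer did not turn round in this bin, with 3.21% (2.47 to 4.08) against 2.48% (2.05 to 2.98) and 2.75%. A match says that the letters are present and not that the factor was bound.

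Genes of the B lineage often had flanking regions. Of 10 B cell marker genes 8 had a flanking region, with 32 regions in all, against 1 of 4 T cell, 2 of 4 myeloid and 0 of 4 erythroid markers. A region within 1 kb was present at 8 of the 10 B cell markers, 0 of 4 T cell, 2 of 4 myeloid and 0 of 4 erythroid markers. The 8 B cell markers with a flanking region are also in the B cell identity list, so they count in both. Among the 12 gene lists, the shares with at least 1 flanking region are to be read against 17.6% of all protein-coding genes. The share was 75.0% for B cell receptor signalling (18 of 24, 53.3 to 90.2), 50.0% for B cell identity (13 of 26, 29.9 to 70.1) and 42.9% for NF-kB signalling (12 of 28, 24.5 to 62.8). It was 33.3% for germinal centre and plasma cell genes (6 of 18, 13.3 to 59.0) and 26.7% for MHC class II (4 of 15, 7.79 to 55.1), both with intervals that hold 17.6%. Over these 5 lists together it was 47.7% (38.2 to 57.4), and 31.5% (23.0 to 41.0) with regions above the median score alone. The lists were chosen with earlier results of these data known, so these shares are descriptions.

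**Figure D4:**
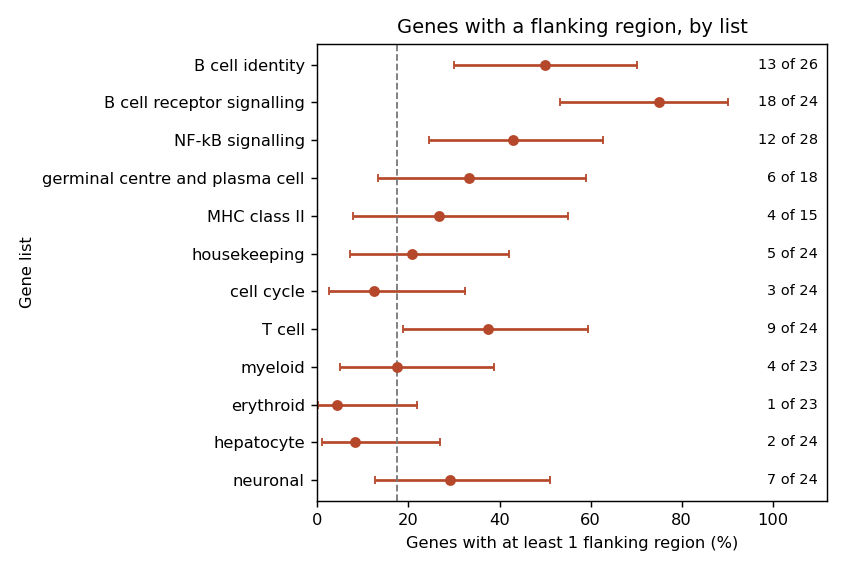
Share of the genes of each list (x axis, %) with at least 1 flanking region, with exact 95% binomial intervals as bars and counts at the right. The dashed line marks the 17.6% of all protein-coding genes, and the intervals of B cell receptor signalling, B cell identity, NF-kB signalling and T cell genes lie above it.

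Genes of other cell types did not all fall below that line. Of 24 T cell genes 9 had a flanking region (37.5%, 18.8 to 59.4), of 24 neuronal genes 7 (29.2%, 12.6 to 51.1), of 23 myeloid genes 4 (17.4%), of 24 hepatocyte genes 2 (8.33%) and of 23 erythroid genes 1 (4.35%, 0.110 to 21.9). Of the 24 housekeeping genes, 23 had a region within 1 kb, but 5 had a flanking region (20.8%, 7.13 to 42.2), and of the 24 cell cycle genes 3 (12.5%, 2.66 to 32.4). For comparison, a region within 1 kb was present at 20 of the 26 B cell identity genes, of which 12 also had a flanking region, and at all 24 B cell receptor signalling genes and 26 of the 28 NF-kB signalling genes, of which 18 and 12 had one. Counted per Mb, flanking regions numbered 105.3 (77.9 to 139.2) for NF-kB signalling, 84.0 (64.4 to 107.7) for B cell receptor signalling, 78.5 (56.4 to 106.5) for B cell identity and 93.1 for housekeeping, against 12.4 (2.55 to 36.1) for cell cycle and 19.9 for all genes. Of the lists of other cell types, T cell had 52.7 per Mb (29.5 to 87.0), myeloid 24.9, neuronal 16.6, hepatocyte 7.14 and erythroid 4.18. The housekeeping value came from 22 regions, 9 of them at ACTB, beta-actin, a gene singled out after its values were seen. Single genes also held many regions of the B lineage lists. TNIP1 had 15 of the 49 in NF-kB signalling, PLCG2 12 of the 62 in B cell receptor signalling and BLK 11 of the 41 in B cell identity.

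Among the genes of B cell identity, BLK, a SRC family kinase of B cells, had 11 flanking regions. Its strongest lay on chromosome 8 at 11349366 to 11349866, 2062 bp upstream of an internal TSS, with a score of 596.8 against 507.7 within 1 kb. This region shared a called peak with a region within 1 kb. PAX5, the factor that fixes B cell commitment, had 7. The strongest of these, whose sequence is shown above, had a score of 554.4 and lay 1237 bp upstream of an internal TSS, while the strongest region within 1 kb had 82.1. The other 6 at PAX5 had scores of 18.7, 20.0, 31.6, 33.1, 44.2 and 91.3. POU2AF1, the coactivator of POU2F factors, also had 7, with 113.99 for the strongest (3568 bp upstream of an internal TSS, chromosome 11, 111238341 to 111238841), against 413.7 within 1 kb. BACH2, a repressor of plasma cell differentiation, and BANK1, a scaffold of B cell receptor signalling, had none, although their promoters had regions of 30.1 and 288.8.

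In B cell receptor signalling PLCG2, the phospholipase that acts after the kinases SYK and BTK, had 12 flanking regions. Of these 10 were upstream and 11 inside the gene, and the strongest had 502.8 (chromosome 16, 81842559 to 81843059, 1813 bp upstream of an internal TSS) against 273.1 within 1 kb. INPP5D, a lipid phosphatase that restrains the pathway, had 7, the strongest with 143.5 on chromosome 2 at 233944131 to 233944631, against 89.4 within 1 kb. In both genes the strongest flanking region thus had a higher score than the promoter. That of PLCG2 shared a called peak with a region within 1 kb, and that of INPP5D did not. BTK and GRB2, an adaptor, had none, with promoter scores of 566.9 and 67.8.

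In NF-kB signalling IKBKB, the kinase that marks the inhibitor for degradation, had 2 flanking regions. The stronger had a score of 542.1, 2880 bp downstream in the first intron, on chromosome 8 at 42150377 to 42150877, against 69.6 within 1 kb. TNIP1, which restrains the pathway with the deubiquitinase A20, had 15, led by a region of 364.3 on chromosome 5 at 150439392 to 150439892, 3666 bp downstream of a TSS, against 216.3 within 1 kb. TRAF1, an adaptor of TNF receptors, had 5, and the strongest, with 214.1 against 82.1 within 1 kb, lay outside the gene, 2632 bp upstream on chromosome 9 at 123693833 to 123694333. CCL22, a chemokine, and CHUK, the partner kinase of IKBKB, had none and had promoter scores of 37.8 and 33.1.

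Among germinal centre and plasma cell genes, S1PR2, a sphingosine phosphate receptor that holds B cells in the germinal centre, had 1 flanking region and no region within 1 kb. The flanking region had a score of 117.9 and lay 4970 bp upstream on chromosome 19 at 10346727 to 10347227, with a PU.1/SPIB, an EBF1 and an E-box match. GCSAM, a signalling protein of germinal centre B cells, had 3, the strongest with 110.1 on chromosome 3 at 111855782 to 111856282 against 495.5 within 1 kb. CD38, an ectoenzyme of plasma cells, had 1 with 55.8 in the first intron against 218.4. BCL6, the repressor of the germinal centre, had none and had a promoter score of 104.4.

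In MHC class II, CD74, the invariant chain, had 5 flanking regions with scores of 27.2, 42.5, 74.9, 133.5 and 385.3. The strongest lay 2668 bp downstream on chromosome 5 at 149789391 to 149789891, in the called peak of the promoter region, whose score was 1229.57. CIITA, the master coactivator of these genes, had 5 with scores of 17.3, 20.0, 28.6, 33.1 and 44.2, the strongest 2716 bp upstream of an internal TSS on chromosome 16 at 11006537 to 11007037, against 54.1 within 1 kb. HLA-DMB, a peptide-loading chain, had 1 with 30.1, in sequence where another annotated gene overlaps. HLA-DOA and HLA-DOB, modulators of loading, had neither a flanking region nor a region within 1 kb.

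In other lists the strongest flanking regions were at ANK1, an ankyrin of the red cell membrane (147.5, chromosome 8, 41561223 to 41561723), and GATA3, a T cell factor (113.99, chromosome 10, 8103106 to 8103606). VCAN, a matrix proteoglycan of monocytes, had 104.4 on chromosome 5 at 82769297 to 82769797, and GRIN1, a glutamate receptor subunit, 83.9 on chromosome 9 at 140045319 to 140045819. CCND2, a G1 cyclin, had 25.7 on chromosome 12 at 4380570 to 4381070 and AHSG, a liver glycoprotein of plasma, 21.4 on chromosome 3 at 186327155 to 186327655. GATA3 had 5 flanking regions and a promoter score of 437.5, whereas GRIN1 and AHSG had no region within 1 kb. The regions named at VCAN and CCND2 shared a called peak with a region within 1 kb.

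VOPP1, a membrane protein, had the most flanking regions of any gene, 17, followed by RFTN1 and TNIP1 with 15, FYN and SH3KBP1 with 13, and CD82 with 12. CD82 was level with IQSEC1 and PLCG2. These genes have many annotated TSSs, from 12 at RFTN1 to 40 at SH3KBP1 among the first 6, and so much eligible sequence, from 36.2 kb at TNIP1 to 82.6 kb at FYN. All 17 at VOPP1 lay inside the gene, 11 of them downstream of their TSS, and their scores ran from 17.3 through a median of 30.1 to 1141.51. After the strongest, its next regions had 626.9 (4051 bp downstream), 293.3 (2289 bp downstream) and 229.2 (4045 bp upstream), so that 4 exceeded the promoter score of 207.7.

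RFTN1, raftlin of B cell lipid rafts, had regions from 16.0 to 244.4 with a median of 44.2, and its 2 strongest were 1 inside the gene at 2872 bp downstream (244.4) and 1 outside it at 2926 bp upstream (237.9). TNIP1 ran from 16.0 to 364.3 with a median of 49.1. FYN, a SRC family kinase, had 10 of 13 downstream, with scores from 17.3 to 320.5 and a median of 31.6, and the strongest lay 4507 bp upstream of an internal TSS. SH3KBP1, an adaptor of receptor endocytosis, ran from 16.0 to 104.4 (median 30.1) and its strongest just exceeded its promoter score of 95.0. CD82, a tetraspanin, ran from 17.3 to 300.1 (median 33.2), with the strongest outside the gene at 4748 bp upstream, against 1059.76 within 1 kb. Within each gene, weak regions near the limit of the list stood beside the strong ones.

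**Figure D5:**
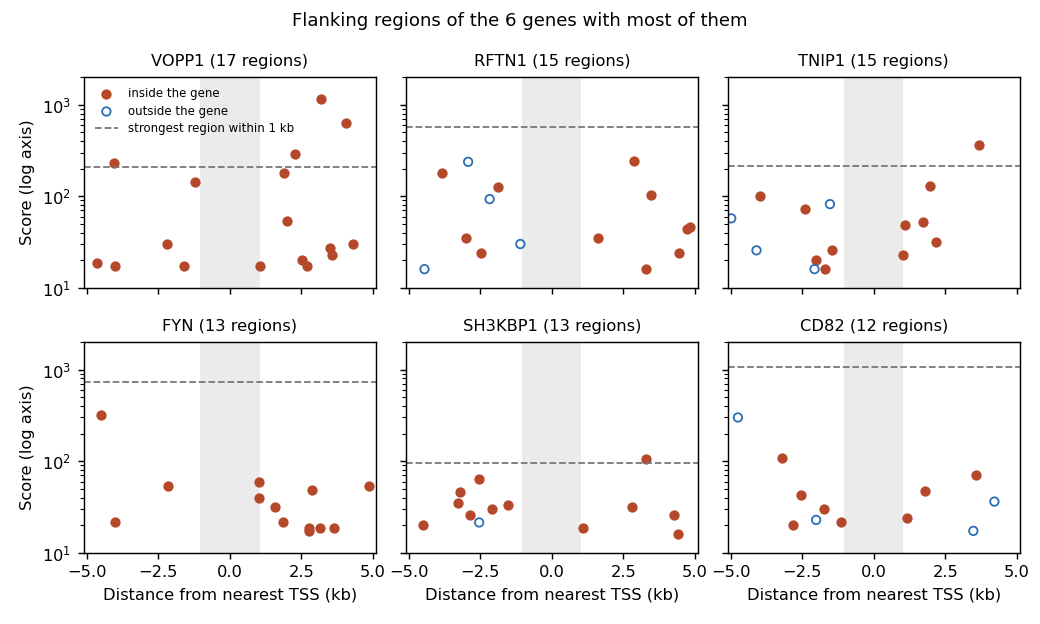
Score (y axis, -log10 q-value, log axis) of each flanking region against its distance from the nearest TSS of the gene (x axis, kb, upstream negative) for the 6 genes with most of them. Filled points lie inside the gene, open points outside, and the dashed line is the strongest score within 1 kb, which 4 regions exceed at VOPP1 and 1 each at TNIP1 and SH3KBP1.

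Flanking regions had close neighbours more often than distal regions. Another region lay within 1000 bp, centre to centre, of 26.1% of them (25.0 to 27.3) and within 5000 bp of 70.0% (68.7 to 71.2), against 18.7% and 40.5% of regions beyond 5 kb and 45.9% and 64.3% of regions within 1 kb of a TSS. The contrast with distal regions was partly fixed by the distance rule. It places flanking regions near a TSS, and for 52.0% of them that TSS had a region within 1 kb. Regions beyond 5 kb are kept away from such promoter regions. By position the class was not wholly free of other starts. A further 86 flanking regions (1.55%) lay within 1 kb of the TSS of a noncoding gene other than a lncRNA, such as a small RNA or a pseudogene, and these had a median score of 28.6 (25.7 to 36.2).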

How the data were processed

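Pi-ATAC libraries of single GM12878 cells, 96 from plate 1 and 95 from plate 2, made up 1 group. Per the study's methods, read pairs were mapped to hg19, low-quality, duplicate and mitochondrial reads were removed, and summits were called on the aggregated cells. Tools named in the submitters' processing notes are Picard 1.79, Bowtie2 2.1.0 and MACS2, the last without a version. The deposited score is the -log10 of the q-value. It served to rank and describe regions. It grows with the pooled depth, which is unknown from the list, and removal of multiply mapped reads can lower it where copies are near-identical, as among HLA genes.

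Coordinates are hg19, 1-based. A region was placed by its centre against every TSS of protein-coding transcripts in GENCODE 44 mapped to GRCh37, whose chromosome lengths match hg19. Eligible sequence was all bases, without N, that met the same conditions. Intervals are at 95%: exact Poisson for densities, exact conditional for their ratios, Clopper-Pearson for shares and order statistics for medians. Motifs were searched on both strands in all regions without N (49997), and those of 10 or more letters are given by name. Sequences are from the reference, not from reads.

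The members and lists were chosen with earlier results of these data known. The genes named were the 8 strongest regions, the 6 genes with most, in each of 5 B lineage lists the 3 genes with the strongest and up to 2 without any in alphabetical order, the strongest gene of each other list, the 6 strongest regions at genes without a region within 1 kb, and the regions nearest to the limits. A few of them are not reported here. With a single pooled list no test between samples could be made. Alternatives changed the TSS set, the limits, the exon and lncRNA conditions, the regions per called peak and the scores used. The canonical TSS and the removal of promoter peaks were added after seeing the data. The counting of eligible bases and the intervals of density ratios and of medians were tested on simulated data. The placing of members and the motif search were not part of that test. Python 3.11.15, numpy 2.4.6, scipy 1.17.1, pandas 2.3.3 and matplotlib 3.10.9 were used.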

Additional observations from a re-analysis of the deposited data

How the results depend on the processing

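No paired analysis was possible because the list holds 1 pooled value per region. Of the recomputed values, 76 lay within the 95% interval of the reported value (for the number of regions, within 1.5 times), 62 moved out of it, and no ratio or called difference changed direction. The causes were not tested. Values are given in the order: density ratio of upstream to downstream; density ratio of genes with to genes without a region within 1 kb; share of genes with a flanking region at genes with and without one; then others.

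With the outermost TSS of each gene these were 0.509, 2.97, 19.5% and 8.33%; the median score was 28.6, the difference of medians upstream minus downstream -1.47 in score and -1.40 in GC percentage points, the share in a promoter peak 13.4%, and RUNX, SP/KLF and NF-kB matched 4.57%, 7.79% and 17.7%. With the canonical TSS (added later) they were 0.616, 3.44, 19.4% and 7.45%, the differences between sides 1.47 in score and 0.599 in GC, the difference in median score between genes with and without a region within 1 kb 2.93, the share in a promoter peak 13.8%, and RUNX and SP/KLF 4.88% and 6.69%. With an inner limit of 2 kb there were 3531 regions, with 0.834, 2.37, 17.3% and 6.69%, a score difference between sides of 1.46, 1.81% in a promoter peak, SP/KLF in 2.38% and 37.3% of the 5 B lineage lists' genes with a region (47.7% as reported). With an outer limit of 10 kb there were 9186 regions, a side ratio of 0.833, shares of 31.3% and 14.2%, a score difference between gene groups of 2.90, 4.78% in a promoter peak, SP/KLF in 3.08% and 58.6% of B lineage genes. Regions above the median score numbered 2168, with a gene ratio of 2.42, shares of 11.7% and 4.63%, a median score of 55.8, side differences of 1.70 in score and -0.798 in GC, 11.2% in a promoter peak, RUNX, SP/KLF and NF-kB in 8.21%, 5.72% and 20.9%, and 31.5% of B lineage genes. Without exon overlap the shares were 22.8% and 8.41% and the score difference between gene groups 2.90. With 1 region per called peak the gene ratio was 2.22, the share 22.7% and that score difference 0. Without the lowest score the median was 28.6, the share 22.7% and that difference 2.93. Without regions in a promoter peak (added later) the gene ratio was 2.37, the share 22.6% and that difference 0. Dropping the lncRNA condition moved none of the values.

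The list ends at a fixed number of regions, so weak regions and their absence at single genes are limited by the pooled depth, which is unknown. The scores take few distinct values, so small differences of medians are steps of that scale.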

Other observations

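Chromosomes differed in the density of flanking regions. Chromosome 5 had 441 of them in 13.7 Mb of eligible sequence, or 32.2 per Mb (exact Poisson 95% interval 29.3 to 35.3), followed by chromosome 8 with 27.6 (24.7 to 30.8) and chromosome 6 with 25.3 (22.6 to 28.2). The lowest densities were 7.51 per Mb (6.13 to 9.09) on chromosome 17, 7.98 (6.54 to 9.64) on chromosome 19 and 8.91 (6.59 to 11.8) on chromosome 22. Regions within 1 kb of a TSS numbered 759 on chromosome 19, 577 on chromosome 17 and 974 on chromosome 5. The densities of the other chromosomes lay between 10.2 per Mb on chromosome 21 and 24.4 on chromosomes 7 and 16.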
